A study of Homo sapiens with 6 samples.

Results

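The genes for the enzymes that hydroxylate collagen were followed in HEK293T cells treated with valproic acid (VPA) and in untreated cells. The members were listed by name as the prolyl 3-hydroxylase family (P3H1, P3H2, P3H3 and P3H4), the alpha subunits of prolyl 4-hydroxylase (P4HA1, P4HA2 and P4HA3) and the lysyl hydroxylases (PLOD1, PLOD2 and PLOD3), and all 10 were found among the 47470 genes of the count tables. HEK293T cells derive from human embryonic kidney and express the large T antigen of SV40, and VPA is a short-chain fatty acid that inhibits histone deacetylases. RNA was sequenced from 3 libraries of cells kept with 1 mM VPA for 1 day and from 3 libraries of untreated cells, all of them wild type cells of this 1 line. Nothing in the labels says whether the libraries of a group came from separate cultures, so p-values measure the spread between these libraries, which may be technical.

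Collagen is hydroxylated in the endoplasmic reticulum while its chains are made and before they fold into the triple helix. Prolyl 4-hydroxylase, a tetramer of alpha subunits with P4HB (protein disulfide isomerase), makes the 4-hydroxyproline that holds the helix together, prolyl 3-hydroxylases modify a few further prolines, and lysyl hydroxylases make the hydroxylysine that is later glycosylated and cross-linked outside the cell. The enzymes need iron, 2-oxoglutarate, oxygen and ascorbate. The study, on chromatin in VPA-treated cells, looked at P3H2 and the genes around it. From the same RNA-seq it already reported P3H2 and its neighbour CLDN1 as up-regulated. The question here was how the rest of this enzyme group, the partners of the enzymes and their collagen substrates moved beside P3H2.

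Counts on genes totalled between 18622267 and 18828495 per library, so depth was nearly even. Of the 820 listed protein-coding genes of chromosome X, 0 had a count in any library, against 72.7% to 92.0% with a count on each autosome, so a 0 there says nothing of expression. The 10 members all lie on autosomes. Normalized counts below are counts after TMM normalization, scaled to the mean library, and tests are edgeR's quasi-likelihood test over the 15298 genes that passed its filter on low counts, with Benjamini-Hochberg adjustment over all of them. A gene is called up- or down-regulated at the thresholds of the study, an adjusted p under 0.05 together with a log2 fold change that reaches 1 in either direction, and is described as higher or lower where it passed the adjusted p alone. Kidney and neural genes known in this line, among them the neurofilament genes NEFL and NEFM, were counted in all libraries, with a summed level of the 9 genes of 19019 to 19414 normalized counts in untreated and 21775 to 23068 in VPA-treated libraries. Of 8 fibroblast markers 5 were tested, of which 4 were higher with VPA and 0 lower, where 32.9% and 30.0% of all tested genes were. DCN passed the filter only through its VPA-treated libraries, with 0, 0 and 3 counts in untreated ones. The sum of the 8 markers went from between 468 and 535 to between 1571 and 1749 normalized counts. The fibroblast genes COL1A2, THY1 and FAP were not tested, with 2, 2 and 0 counts over all libraries. Epithelial markers summed to 169.8 to 211 and then 646 to 713, with KRT14 and KRT5 at 0, and blood markers to 15.5 to 26.2 and then 32.8 to 42.2. The part of such genes in the changes below was not tested. In a bulk library, fewer cells that express a gene and less RNA per cell cannot be told apart.

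The hydroxylase genes did not move as a block. All 10 passed the filter, P4HA3 only through its VPA-treated libraries, since its untreated libraries held 10, 12 and 8 counts. P3H2 and P4HA3, the members with the fewest counts, were up-regulated, P3H1, P3H3, P4HA1 and P4HA2 were higher by smaller amounts, P3H4 and PLOD2 were lower, and PLOD1 and PLOD3 did not pass the test. The up-regulated members were 2 of 10, where 12.0% of all tested genes were up-regulated, and 0 of 10 were down-regulated, where 0.503% were. Counting by adjusted p alone, 6 members were higher and 2 lower, where 32.9% and 30.0% of all tested genes were. The median log2 fold change of the members was 0.15, against 0.01 over all tested genes. Among the 11065 genes with a mean of 100 or more normalized counts 28.7% were higher and 38.8% lower, and the 8 members in that class counted 4 and 2. VPA-treated libraries all lay above all untreated ones in 6 members and all below in 2, where 34.8% and 31.0% of tested genes did so. P3H1 and P4HA1 did not pass with DESeq2 (adjusted p = 0.141 and 0.129), which left 4 members higher and the same 2 genes, P3H4 and PLOD2, lower.

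**Figure D1:**
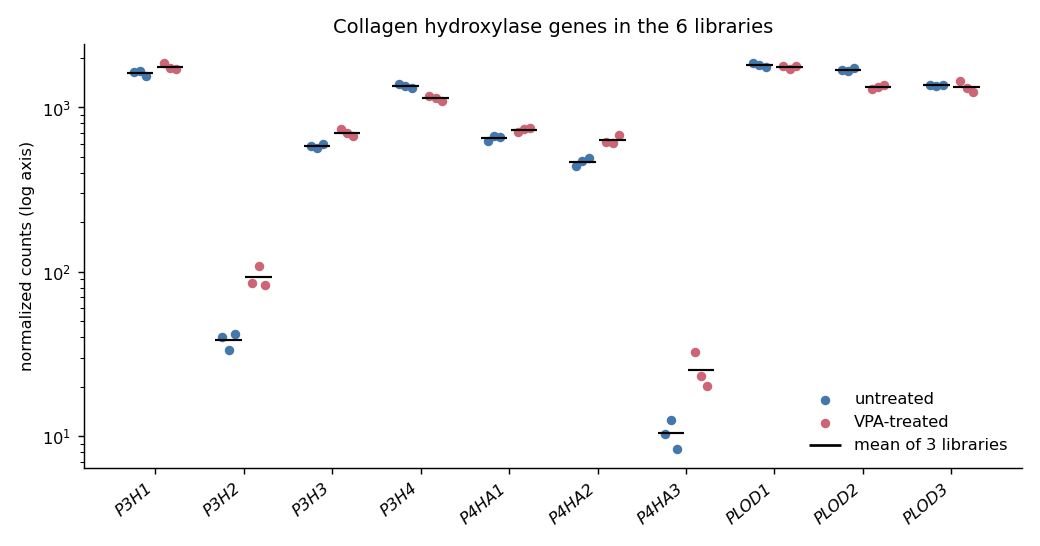
Normalized counts (log axis) of the 10 collagen hydroxylase genes, with 1 point per library for 3 untreated and 3 VPA-treated libraries and a bar at the mean of each group. P3H2 and P4HA3 lie far below the other members in both groups and show the widest gaps between the groups, while the points of PLOD1 and of PLOD3 overlap.

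**Figure D2:**
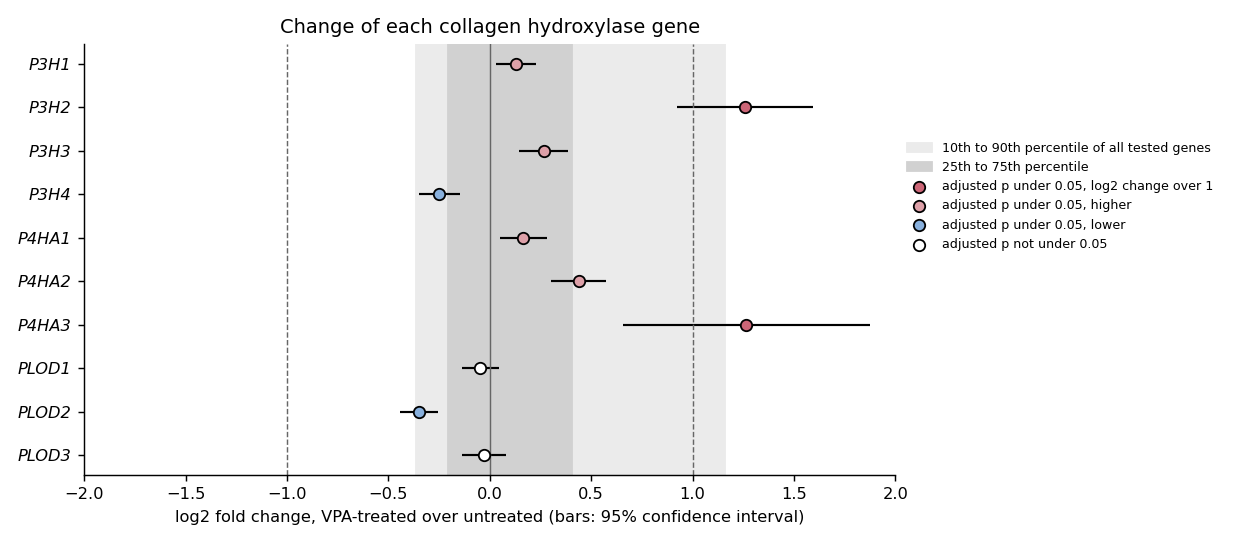
Log2 fold change of each gene, VPA-treated over untreated, with its 95% confidence interval from the edgeR fit, 3 libraries per group. Shaded bands span the 10th to 90th and 25th to 75th percentiles of all 15298 tested genes, and dashed lines mark a log2 fold change of 1 in size; the intervals of P3H2 and P4HA3 both reach below that line.

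Among the prolyl 3-hydroxylases, P3H2 modifies type IV collagen of basement membranes in particular. P3H2 had 40.4, 33.5 and 42.0 normalized counts in untreated and 85.3, 109 and 83.3 in VPA-treated libraries. Every VPA-treated library was far above the highest untreated one, and the groups did not overlap. The rise was 2.39-fold, with a 95% confidence interval of 1.89 to 3.02 (adjusted p = 7.22e-07, edgeR), on 400 counts over the 6 libraries. Of all tested genes, 91.0% had a smaller log2 fold change. Up-regulation was much more frequent among genes with few counts, at 29.1% of the 4233 genes whose mean was under 100 normalized counts against 5.44% of the 11065 others, and P3H2 and P4HA3 were the members in the first class. When the test asked for a log2 fold change beyond 1 (glmTreat in edgeR), neither was called, with adjusted p = 0.225 for P3H2 and 0.666 for P4HA3.

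P3H2 is a minus-strand gene of chromosome 3, from 189956728 to 190122437 (GRCh38, GENCODE 44), with 15 exons in its main transcript. RefSeq gives it 2 start sites 1381 bases apart, which differ in base composition. The downstream start, at 190120897, is called the main start here, as a label alone, since the main transcript was not matched to either start. The window of 300 bases around it held 27 CG dinucleotides and 66.3% G and C, more CG than 71.8% of the 35116 promoter windows of all genes. The window around the upstream start, at 190122278, held 4 and 49.7%, and more CG than 24.5% of windows. The bases before each start are printed from RefSeq on GRCh38.p14, 5′ to 3′ on the minus strand with every CG in capitals, to show this contrast; only bases outside annotated exons of coding genes are given.
P3H2 main start, chr3:190120898-190121147: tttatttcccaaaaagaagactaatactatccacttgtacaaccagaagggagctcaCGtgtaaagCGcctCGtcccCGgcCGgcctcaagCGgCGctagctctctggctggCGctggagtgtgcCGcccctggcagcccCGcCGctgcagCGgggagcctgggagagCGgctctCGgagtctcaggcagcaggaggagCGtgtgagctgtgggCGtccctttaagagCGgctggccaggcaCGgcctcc
P3H2 upstream start, chr3:190122438-190122528: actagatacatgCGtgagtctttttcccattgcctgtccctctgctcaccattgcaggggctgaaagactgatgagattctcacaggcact
The stretch before the main start holds 18 CG in 250 bases and the stretch before the upstream start 1 in 91. The second does not adjoin its start site, because annotated exon sequence lies between, so the 2 stretches lie at unlike distances from their starts. Counts per gene do not separate the starts, so which of them the added reads came from was not measured. The antisense transcript P3H2-AS1 lies within the span of P3H2 on the opposite strand, shares no exonic base with its main transcript and had 6 counts, all in VPA-treated libraries, against 400 on P3H2. Of 6 genes around P3H2 in the part of the chromosome that the study examined, 1 was tested, and it rose. In the main fit 32.9% of all tested genes were higher. Without a filter on low counts 3 of the 6 genes were called higher, with TP63 and P3H2-AS1 added (adjusted p = 0.0322 and 0.0485, edgeR). These added calls rest on very few counts. TP63 had 0, 0 and 2 counts in untreated and 3, 5 and 5 in VPA-treated libraries. P3H2-AS1 had 0, 0 and 0 and then 1, 3 and 2. They do not show that the genes around P3H2 rose together. TP63 was at 15 counts over the 6 libraries, too few for the filter, and the tested gene CLDN1, the tight junction gene claudin-1, rose with a log2 fold change of 2.57 (adjusted p = 3.85e-10, edgeR). Beside the windows of the other members, 8 of 10 of which matched a RefSeq window, the main P3H2 start stood in the middle, between 11 CG in P3H3 and P4HA2 and 37 in PLOD2.

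**Figure D3:**
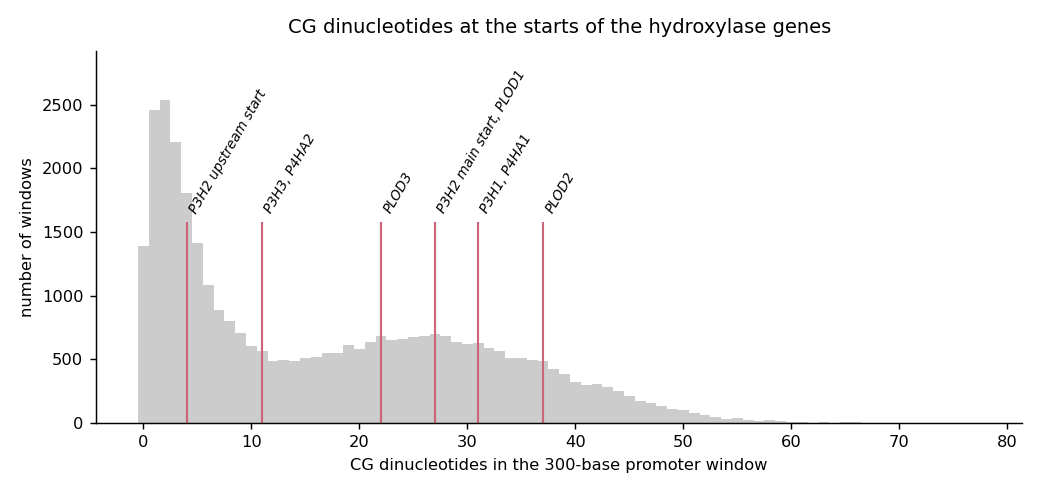
Number of CG dinucleotides in the 300-base windows (250 bases before to 50 after a start site) of all 35116 RefSeq promoters, in grey, with red lines at the 9 windows of the 8 members that matched. The upstream start of P3H2 falls in the low peak with 4 CG and PLOD2 lies highest with 37.

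Short motifs were looked for in the same 300-base windows on both strands. The letters ACGTG, the core that hypoxia-inducible factors bind, occurred in the windows of P3H2 (main start), P4HA1 and PLOD2, and in 21.4% of all windows. In P3H2 its 2 matches, 1 on either strand, overlap in a single E-box, CACGTG, a motif that 7.26% of all windows hold. The GC box GGGCGG was present in 5 of the 9 member windows and 45.0% of all windows, CCAAT in 3 and 34.6%, and TATAAA in 1, that of P4HA1, and 11.5%. Of the genes with ACGTG, P3H2 and P4HA1 were higher and PLOD2 lower with VPA.

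P3H1, the enzyme that 3-hydroxylates type I collagen in a complex with CRTAP and the cyclophilin PPIB, was far more abundant. It had 1635, 1672 and 1554 normalized counts in untreated and 1857, 1744 and 1708 in VPA-treated libraries. The groups did not overlap, but the lowest VPA-treated value was only slightly above the highest untreated one. The change was a rise of 9.23% (adjusted p = 0.0231, edgeR) and did not pass without untreated replicate 3 or without VPA replicate 1 (adjusted p = 0.138 and 0.119), nor without a filter on low counts (adjusted p = 0.0725). The start of P3H1 on chromosome 1 (42746335 to 42767084, minus strand) faces that of C1orf50, which begins 161 bases away on the plus strand. C1orf50 went from 275.5 ± 37.8 to 226.8 ± 19.5 normalized counts (SD, n = 3 per group), with a log2 fold change of -0.28 (adjusted p = 0.0162, edgeR) and overlapping groups. That call did not pass with library totals or upper quartile as the scaling (adjusted p = 0.209 and 0.0594), without untreated replicate 2 or without VPA replicate 2 (adjusted p = 0.112 and 0.1003). The pair therefore had opposite signs in the same cells, each by a small amount, across the 160 bases that lie between their first exons. That stretch is printed on the strand of P3H1 with every CG in capitals, because both genes start from it.
P3H1 to C1orf50, chr1:42767085-42767244: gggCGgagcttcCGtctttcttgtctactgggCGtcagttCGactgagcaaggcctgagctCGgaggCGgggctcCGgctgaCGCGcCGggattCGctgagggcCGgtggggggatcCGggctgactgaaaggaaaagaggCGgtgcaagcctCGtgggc

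P3H3 and P3H4 moved in opposite directions. Their proteins are known to act together with PLOD1 in the hydroxylation of lysines in the collagen helix, and P3H4 itself lacks the catalytic domain. P3H3 had 583, 568 and 600.5 normalized counts in untreated and 735, 695 and 674 in VPA-treated libraries. The lowest treated library was above the highest untreated one, a rise of 20.1% (adjusted p = 0.00042, edgeR). P3H3 lies on chromosome 12 (6828407 to 6839847, plus strand) and shares 114 exonic bases of its main transcript with GPR162, a receptor gene on the same strand that rose, with 53.2 ± 4.36 and then 158 ± 28.2 normalized counts (SD, n = 3 per group; log2 fold change 1.57, adjusted p = 6.31e-09, edgeR). Reads in the shared bases cannot be assigned to one gene, so the value of P3H3 carries that uncertainty. P3H4 had 1398, 1358 and 1307 normalized counts in untreated and 1170, 1147 and 1100 in VPA-treated libraries. P3H4 lies on chromosome 17 (41801947 to 41812604, minus strand). All treated libraries were below all untreated ones, a decrease with a log2 fold change of -0.25 and a 95% confidence interval of -0.35 to -0.15 (adjusted p = 0.000118, edgeR). FKBP10, which starts 76 bases from P3H4 on the opposite strand and encodes a chaperone that PLOD2 works with, had 6227 ± 78.5 and 6031 ± 143 normalized counts and did not pass the test (adjusted p = 0.310, edgeR), with a sign that turned with upper quartile and library totals. JUP, the next gene on the other side of P3H4, rose from 1368 ± 51.7 to 2163 ± 133 (SD, n = 3 each; log2 fold change 0.66, adjusted p = 2.14e-10, edgeR).

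The alpha subunits of prolyl 4-hydroxylase all pointed upwards, in inverse order of their counts. P4HA1, the main subunit of most cells, had 627, 672 and 661 normalized counts in untreated and 714, 738 and 746 in VPA-treated libraries. P4HA1 lies on chromosome 10 (73007217 to 73096974, minus strand). The groups did not overlap, and the rise was 12.1% (adjusted p = 0.0132, edgeR), which did not pass without untreated replicate 1 or VPA replicate 3 (adjusted p = 0.0654 and 0.0520). P4HA2 had 442, 470.0 and 493 normalized counts in untreated and 617, 607 and 681 in VPA-treated libraries. This was a clear gap between the groups and a rise of 35.5%, with a 95% confidence interval on the fold of 1.23 to 1.49 (adjusted p = 4.78e-06, edgeR). PDLIM4 and SLC22A4, plus-strand genes that overlap the span of P4HA2 on chromosome 5 (132190147 to 132295315, minus strand) without sharing exons of its main transcript, had log2 fold changes of 0.78 and 0.97 (adjusted p = 6.31e-06 and 0.00192, edgeR). P4HA3, the rarest subunit, had 10.4, 12.6 and 8.40 normalized counts in untreated and 32.6, 23.1 and 20.1 in VPA-treated libraries. The highest untreated library stayed below the lowest treated one, but the whole gene rests on 109 counts over the 6 libraries, and the 95% confidence interval on its 2.40-fold rise runs from 1.58 to 3.67 (adjusted p = 0.000759, edgeR). P4HA3 was not tested where at least 10 counts were required in every library. Its span on chromosome 11, 74235801 to 74311640 (minus strand), is one where PPME1 overlaps it on the opposite strand with 11473 counts over the 6 libraries. PPME1 had a log2 fold change of -0.09 and did not pass (adjusted p = 0.0570, edgeR). It did pass with DESeq2 (adjusted p = 0.0498). In edgeR it passed with DESeq2 size factors, without a filter and with a replicate block (adjusted p = 0.0313, 0.0393 and 0.0131). It did not pass with upper quartile or when any library was left out, and its sign turned with library totals.

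The lysyl hydroxylases did not rise. PLOD2, the enzyme for the ends of the collagen chains where cross-links form, had 1683, 1675 and 1742 normalized counts in untreated and 1293, 1341 and 1374 in VPA-treated libraries. It lies on chromosome 3 (146035139 to 146163725, minus strand). Its groups were well apart, and the log2 fold change of -0.35 had a 95% confidence interval of -0.44 to -0.25 (adjusted p = 8.71e-07, edgeR), the largest decrease among the 10 members. Of all tested genes, 11.0% had a lower log2 fold change than PLOD2. PLOD1, which hydroxylates lysines in the helix, had 1857, 1821 and 1774 normalized counts in untreated and 1789, 1705 and 1785 in VPA-treated libraries. These values overlap, with a fold of 0.968 and a 95% confidence interval of 0.909 to 1.03 (adjusted p = 0.364, edgeR). PLOD3, which also carries glycosyltransferase activity for hydroxylysine, had 1367, 1353 and 1365 normalized counts in untreated and 1446, 1308 and 1249 in VPA-treated libraries. PLOD3 lies on chromosome 7 (101205977 to 101218420, minus strand). The treated libraries spread on both sides of the tight untreated values, with a fold of 0.980 and an interval of 0.909 to 1.06 (adjusted p = 0.648, edgeR). The sign of PLOD1 and PLOD3 turned with upper quartile and library totals as the scaling, and that of PLOD3 also without VPA replicate 3. Around PLOD1 on chromosome 1 (11934205 to 11975538, plus strand), KIAA2013 and MFN2 were both lower, with log2 fold changes of -0.39 and -0.28 (adjusted p = 2.03e-06 and 3.01e-06, edgeR).

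Levels of different genes were compared as normalized counts per kilobase of the main transcript. In untreated cells P3H1 was highest with 625 ± 23.3, followed by PLOD1 with 611 ± 14.0, P3H4 with 576 ± 19.3, PLOD3 with 483 ± 2.52, PLOD2 with 453 ± 9.68, P4HA1 with 238 ± 8.49, P3H3 with 222 ± 6.10, P4HA2 with 103 ± 5.65, P3H2 with 11.1 ± 1.30 and P4HA3 with 4.63 ± 0.924 (SD, n = 3 each). The ranges of the libraries overlapped in that order for P3H1 and PLOD1 alone. With VPA the order of the means was the same, and the ranges overlapped for P3H4 with PLOD3 and for P4HA1 with P3H3. The upper part of the order depends on the length used, since over all annotated exons P3H4 had rank 1 and P3H1 rank 4, but P3H2 kept rank 9 and P4HA3 rank 10. P3H2 held 0.776% of the summed per-kilobase level of its family in untreated and 1.82% in VPA-treated cells, and it reached 1.78% ± 0.265 and then 3.90% ± 0.658 of the level of P3H1 (SD, n = 3 each). Over all annotated exons the latter values were 2.90% ± 0.432 and 6.36% ± 1.07. P4HA2 went from 29.8% to 33.4% of the alpha subunits, P4HA3 from 1.34% to 2.69%, and P3H4 from 40.1% to 33.2% of its family. These shares depend on the length as well, and over all annotated exons P4HA2 went from 17.8% to 20.5%, P4HA3 from 1.01% to 2.08% and P3H4 from 49.6% to 41.8%. As a sum per kilobase the prolyl 3-hydroxylase family was at 1434 ± 33.7 and 1461 ± 55.6, the alpha subunits at 346 ± 13.3 and 418 ± 11.0, and the lysyl hydroxylases at 1547 ± 9.75 and 1421 ± 33.7, in untreated and VPA-treated cells in turn (SD, n = 3 each). The spread of the libraries thus covered the difference for the first family, while the groups of the other two families did not overlap. PLOD2 alone among the lysyl hydroxylases passed the test, and with library totals the log2 fold changes of PLOD1 and PLOD3 were positive.

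**Figure D4:**
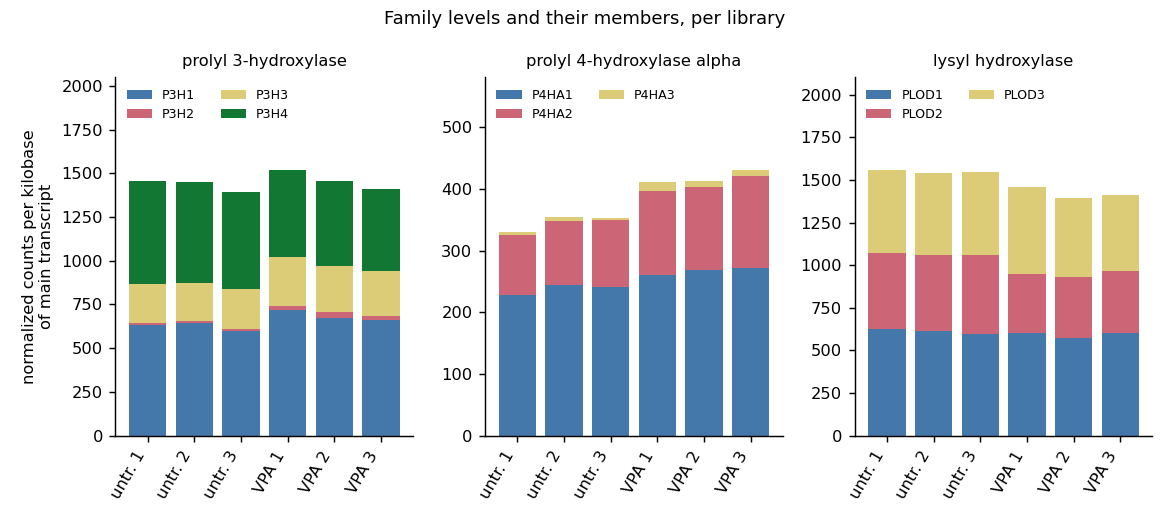
Summed level of each family per library, in normalized counts per kilobase of main transcript, stacked by gene; the vertical scales differ between panels. P3H2 and P4HA3 form thin layers in all 6 libraries, and the P4HA1 and P4HA2 layers together are taller in the 3 VPA-treated libraries.

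The genes that work with the hydroxylases were described from lists of known partners, by counts alone. Of 9 partners in the modification of collagen, 1 was higher and 5 were lower with VPA, with a median log2 fold change of -0.13. All 9 had a mean of 100 or more normalized counts, a class in which 28.7% of genes were higher and 38.8% lower. P4HB, the second subunit of prolyl 4-hydroxylase, fell, with 14525 ± 351 and then 12456 ± 345 normalized counts (SD, n = 3 per group; log2 fold change -0.22, adjusted p = 7.20e-05, edgeR), opposite to the alpha subunits. CRTAP, the partner of P3H1, fell from 4176 ± 47.5 to 3291 ± 74.7 (SD, n = 3 per group), with a log2 fold change of -0.34 (adjusted p = 1.17e-07, edgeR). SERPINH1, the collagen chaperone HSP47, fell most, with 2028 ± 46.2 and then 1161 ± 18.4 normalized counts (SD, n = 3 per group; log2 fold change -0.80, adjusted p = 1.08e-12, edgeR). The enzymes that add galactose to hydroxylysine split, with COLGALT1 lower (log2 fold change -0.18) and COLGALT2 higher (0.46). TMEM38B was the remaining lower partner, with a log2 fold change of -0.13 (adjusted p = 0.0336, edgeR). With DESeq2, upper quartile or at least 10 counts in every library 4 partners were lower. The same count was found without untreated replicate 2, VPA replicate 1 or VPA replicate 2. With library totals as the scaling, 2 in place of 5 partners were lower, since that scaling raised the median of all tested genes to 0.14 on the log2 scale; P4HB then missed the threshold narrowly (adjusted p = 0.054, edgeR) and COLGALT1 by more (adjusted p = 0.381, edgeR), while CRTAP and SERPINH1 were still lower.

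The lysyl oxidases, which cross-link collagen by way of lysine and the hydroxylysine that PLOD enzymes make, were higher in 5 of 5 genes, with a median log2 fold change of 1.01. Of all tested genes 32.9% were higher. LOXL1 rose, with 44.6 ± 2.72 and then 173 ± 22.8 normalized counts (SD, n = 3 per group; log2 fold change 1.96, adjusted p = 6.78e-11, edgeR). LOX had 174 ± 30.4 and 351 ± 20.8, a log2 fold change of 1.01, which was just under 1 with DESeq2 and some other settings, and LOXL2 had 197 ± 17.3 and 402 ± 17.7, with 1.03 (adjusted p = 1.55e-08 and 4.17e-10, edgeR). Without untreated replicate 2 or VPA replicate 1 both were under 1, LOX at 0.86 and 0.96 and LOXL2 at 0.99 and 0.99, and LOXL2 was at 0.98 without untreated replicate 1. LOXL3 and LOXL4 rose by 0.24 and 0.85 on the log2 scale (adjusted p = 0.0112 and 0.00893, edgeR) and did not pass with DESeq2 (adjusted p = 0.110 and 0.112), nor LOXL3 without untreated replicate 3 and LOXL4 without VPA replicate 3 (adjusted p = 0.0578 and 0.0537). Among 13 genes for procollagen export and processing 7 were higher and 2 lower, or 1 lower with upper quartile or library totals. Of all tested genes 32.9% were higher and 30.0% lower in the main fit. The largest rises were those of ADAMTS14, a procollagen N-proteinase, from 2.08 ± 1.03 to 25.6 ± 5.36 normalized counts (SD, n = 3 each), and of CREB3L1, a membrane-bound transcription factor that acts on collagen genes, from 49.1 ± 4.78 to 221 ± 13.8, with log2 fold changes of 3.54 and 2.17 (adjusted p = 2.21e-07 and 1.16e-12, edgeR). ADAMTS14 had 3, 2 and 1 counts in untreated libraries and passed the filter only through the VPA-treated ones. PCOLCE, an enhancer of procollagen C-proteinase, was higher by 1.04 and its relative PCOLCE2 lower, at -0.46 (adjusted p = 1.78e-08 and 8.86e-06, edgeR).

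Most fibrillar collagen chains, the substrates of these enzymes, were higher. Of 11 fibrillar collagen chain genes 10 were tested, of which 9 were higher and 1 was lower, with a median log2 fold change of 1.54. Of all tested genes 32.9% were higher and 30.0% lower. COL5A3 and COL11A1 passed the filter only through their VPA-treated libraries, with 2, 1 and 3 and with 0, 3 and 2 counts in untreated ones. With at least 10 counts required in every library 7 chains were higher. The summed level of the 11 genes was 2693, 2642 and 2622 normalized counts in untreated and 6084, 5632 and 5666 in VPA-treated libraries, 2.18 times as much, while the sum of the 10 hydroxylase genes was 9608 ± 53.6 and 9525 ± 185 (SD, n = 3 each). COL1A1 rose from 433 ± 27.9 to 1288 ± 85.1 and COL3A1 from 89.8 ± 0.473 to 472 ± 25.9 normalized counts (SD, n = 3 each), log2 fold changes of 1.57 and 2.39 (adjusted p = 6.08e-15 and 1.93e-15, edgeR). COL11A2 was the lower chain, with a log2 fold change of -0.62 (adjusted p = 0.00177, edgeR). COL1A2, which pairs with COL1A1 in type I collagen, had 2 counts in all. COL1A1 is also one of the 8 fibroblast markers given above. Type IV collagen, the substrate that P3H2 is best known for, was higher in all 4 tested chains, where 32.9% of all tested genes were higher. The abundant COL4A1 and COL4A2 rose by 0.21 and 0.24 on the log2 scale (adjusted p = 0.000716 and 3.41e-05, edgeR), and the rare COL4A3 and COL4A4 by 2.10 and 1.73 (adjusted p = 3.21e-08 and 6.94e-11, edgeR). COL4A5 and COL4A6 are listed at 0 in every library, as were all listed protein-coding genes of chromosome X, so their expression was not measured.

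**Figure D5:**
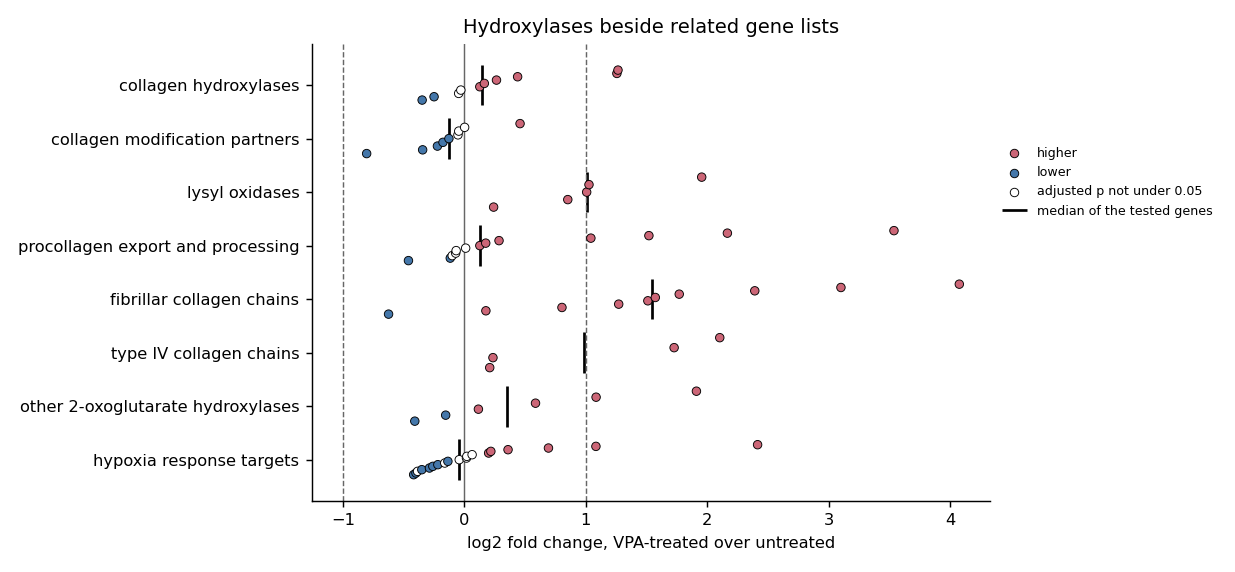
Log2 fold change (VPA-treated over untreated) of each tested gene of the hydroxylases and of 7 related lists, red where higher and blue where lower at an adjusted p under 0.05 (edgeR, 3 libraries per group), white where not past it, with a bar at the median of each list. The fibrillar collagen chains and lysyl oxidases lie to the right of the hydroxylases, whose median is 0.15, and the modification partners to the left.

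Other hydroxylases that use 2-oxoglutarate were also mixed, with 4 of the 6 tested genes higher and 2 lower, or 1 lower with upper quartile or library totals, where HIF1AN did not pass (adjusted p = 0.101 and 0.683, edgeR). Of all tested genes 32.9% were higher and 30.0% lower in the main fit. EGLN1, the main oxygen sensor that marks hypoxia-inducible factors for degradation, fell, with 1883 ± 57.1 and then 1419 ± 41.7 normalized counts (SD, n = 3 per group), and EGLN3 rose from 285 ± 4.06 to 427 ± 24.7, log2 fold changes of -0.41 and 0.59 (adjusted p = 8.47e-08 and 3.46e-07, edgeR). ASPHD1 and ASPHD2, relatives of aspartyl hydroxylase, were up-regulated by 1.91 and 1.09 on the log2 scale (adjusted p = 2.60e-09 and 3.43e-11, edgeR). P4HA1, P4HA2, PLOD1 and PLOD2 are known to be induced in hypoxia, and 21 other genes known for that response were counted for comparison. Of 19 tested, 6 were higher and 7 lower, with a median log2 fold change of -0.04. These counts lay near the 32.9% higher and 30.0% lower of all tested genes. SLC2A3 and CA12 were up-regulated by 2.42 and 1.08, while the glycolytic genes LDHA and ENO1 and the glucose transporter SLC2A1 fell by 0.35, 0.40 and 0.42 on the log2 scale (adjusted p = 6.70e-14, 1.85e-10, 2.00e-06, 3.88e-08 and 4.34e-07 in turn, edgeR). With library totals 9 of these genes were higher in place of 6 and 4 lower in place of 7. CA12 was just under a log2 fold change of 1 without untreated replicate 1, and PGK1 is one of the genes of chromosome X at 0. The ascorbate transporter SLC23A2 was higher by 0.30 on the log2 scale (adjusted p = 2.34e-06, edgeR), and SLC23A1 had no counts.

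As a description of likeness, the profile of P3H2 over the 6 libraries, on the log2 scale, was compared with that of the other 15297 tested genes. The highest Pearson correlations were those of LGALS3BP (0.999), KATNAL1 (0.999), PDE10A (0.997), the pseudogene ARHGAP27P2 (0.997) and LACC1 (0.997), where the 6 points fall into 2 groups by treatment and share their libraries. As many as 1704 genes had a value over 0.95, so the measure does not single out these 5. Their log2 fold changes ran from 0.25 in KATNAL1 to 2.10 in ARHGAP27P2, which had 5, 3 and 5 counts in untreated libraries and passed the filter only through the VPA-treated ones.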

How the data were processed

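RNA-seq of 3 untreated and 3 VPA-treated HEK293T libraries was used, 1 table per library. The authors deposited raw read counts per gene. Reads were cleaned with SOAPnuke, aligned with STAR and counted with htseq-count, and the submitters' processing notes give STAR 2.7.10b and HTSeq 2.0.1. The annotation and the strand setting are not given in the sources used here. The summary lines that name no gene, 11.8% to 12.7% of each table, were left out. Counts were tested as deposited with edgeR 4.0.16 in R 4.3.3 (TMM, filterByExpr with a minimum count of 10, glmQLFit and glmQLFTest, 2 groups, no covariate) and adjusted by the Benjamini-Hochberg method over 15298 genes. Normalized counts are TMM-scaled to the mean library. The steps were tested on simulated data. Counting error limits rare genes most, and precision follows depth, which was even. The labels do not say whether replicate numbers pair the libraries. Deviations from the group mean correlated at 0.14, 0.02 and 0.08 for same-numbered libraries and at -0.11 to 0.03 for differently numbered ones. A weak pairing is therefore possible and was not tested, and the main fit takes no account of it. Alternatives were DESeq2 1.42.0, its size factors, upper quartile and library totals as scaling, other filters, a prior count of 2, glmTreat, a replicate block and leaving out each library. The members and the gene lists (partners, lysyl oxidases, export and processing, fibrillar and type IV collagen, other 2-oxoglutarate hydroxylases, hypoxia targets, ascorbate transporters, genes around P3H2, and kidney and neural, fibroblast, blood and epithelial markers) were chosen with earlier results of these data known. All members were named, with genes beside or overlapping them, members of these lists and the 5 genes most like P3H2. Gene positions are those of GENCODE 44 (GRCh38), and promoter windows are from RefSeq (GRCh38.p14).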

Additional observations from a re-analysis of the deposited data

How the results depend on the processing

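P3H2 was up-regulated in the 14 alternatives other than glmTreat, with a log2 fold change between 1.12 and 1.39, while glmTreat, a test against a log2 fold change of 1, up-regulated 0 of the 10 hydroxylase genes. With at least 10 counts required in every library 1 was up-regulated, since P4HA3 was then not tested. P3H3, P3H4, P4HA2 and PLOD2 kept their calls in the same 14 alternatives. The calls of P3H1 and P4HA1 each rested on single libraries, as given above. Without 1 library at a time, 2 hydroxylase genes were up-regulated, 0 down-regulated, 5 to 6 higher and 2 lower, and in all genes 1874 to 1961 were up- and 83 to 110 down-regulated. The sign turned for PLOD1 (log2 fold change 0.019 with upper quartile, 0.085 with library totals), PLOD3 (0.036 and 0.10, and between -0.091 and 0.015 without 1 library at a time, positive without VPA replicate 3), FKBP10 (0.019 and 0.085) and PPME1 (0.038 with library totals). Library totals moved the median log2 fold change of all genes from 0.01 to 0.14 and the share of higher genes among those past the threshold from 52.3% to 73.9% (63.0% with upper quartile). With that scaling 9 in place of 17 context genes and 2372 in place of 4591 of all genes were lower, and 38 in place of 77 were down-regulated. Of all genes, 1179 were up- and 43 down-regulated with at least 10 counts in every library, 1149 and 8 with glmTreat, and 162 were down-regulated without a filter. With the replicate number as a block 6 hydroxylase genes were higher, 2 lower and 2 up-regulated, with 1.26 for P3H2 and 1.27 for P4HA3, and it changed the call of PPME1 (adjusted p = 0.0131, edgeR). Depth limits P4HA3, at 109 counts, more than any other member.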
